A study of Mus musculus with 13 samples.

Results

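Nqo1, Gclc, Gclm, Txnrd1, Srxn1, Hmox1, Cbr3 and Ephx1 encode enzymes of detoxification, glutathione synthesis, thioredoxin reduction and haem breakdown that are known targets of the transcription factor NRF2. They were taken as the 8 genes whose symbols the probe annotation carries among 16590 symbols, and every one of their probes was read, 12 of 25697 in all. Of these probes 11 passed the detection filter, and all 8 genes were tested, among 8027 genes in all. Whole-liver RNA of female C57BL/6 mice had been hybridised to 13 single-colour Illumina BeadArrays, which read each transcript through beads that carry a short probe. The groups were naive, that is untreated (3 arrays, A to C), and mice given TAA for 1 week (3 arrays, A to C), 4 weeks (4 arrays, A to D) or 6 weeks (3 arrays, A to C). TAA is the usual short form of thioacetamide, a hepatotoxin that liver cells oxidise to reactive products, and the series title places it in a study of liver fibrosis. The labels give no age, dose, route or dosing scheme and no time-matched vehicle group, and the tissue field of the labels holds the word gender, so the tissue was taken from the source name. They do not say whether the arrays of a group came from separate animals, so the p-values measure only the spread between these samples, which may be technical.

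NRF2, the product of Nfe2l2, is made continuously and, in an unstressed cell, is bound by KEAP1, which hands it to a CUL3 ubiquitin ligase for destruction. Electrophiles and oxidants modify cysteines of KEAP1, NRF2 then escapes, pairs with a small MAF protein and binds antioxidant response elements in the control regions of its target genes. BACH1 occupies many of the same elements as a repressor and is displaced by haem. In liver the targets include enzymes that conjugate or reduce reactive metabolites, both subunits of the ligase that limits glutathione synthesis, and the thioredoxin system that repairs oxidised protein thiols.

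The core of the antioxidant response element is usually written TGACNNNGC, and the first bases of the genes were searched for it. RefSeq promoter windows of build GRCm38.p6, from 250 bases before to 50 bases after a transcription start, were at hand for 6 of the 8 genes (8 windows, 3 of them for Txnrd1), and none for Gclc and Hmox1. Searched on both strands, 3 windows held TGACNNNGC, those of Gclm and Srxn1 and 1 window of Txnrd1. Over the whole table, 4071 of 32851 windows (12.4%) held it. A second form, TGAGNNNGC, was added after the windows had been seen. It occurred in 5798 of all windows (17.6%) and, among these genes, in the Srxn1 window alone, at 2 places. The following stretches of 39 bases show the matches that lie before the start, in capitals, on the strand of the gene.
Gclm, chr3:122245408-122245446: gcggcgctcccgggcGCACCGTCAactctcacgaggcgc
Txnrd1, chr10:82859099-82859137: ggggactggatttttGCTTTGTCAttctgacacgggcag
Srxn1, chr2:152105351-152105389: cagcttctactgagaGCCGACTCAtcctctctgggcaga
Srxn1, chr2:152105464-152105502: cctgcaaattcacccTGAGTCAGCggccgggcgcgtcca
All 4 stretches lie on the plus strand, as do the genes. Read on the opposite strand, the Gclm match is TGACGGTGC, the Txnrd1 match TGACAAAGC and the first Srxn1 match TGAGTCGGC. The last Srxn1 match stands 36 bases before the start and includes TGAGTCA, the letters also known for AP-1 factors. A match describes these letters only, and the windows of Nqo1, Cbr3 and Ephx1, which held neither form, cover no distant control regions.

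The arrays differed in brightness, with mean intensities of 472 to 587 for the naive group and 456 to 611 for the 4-week group, but 177 to 479 for the 1-week group and 195 to 273 for the 6-week group. Each detected 8344 to 10980 probes. The arrays fell into 2 sets that cross the groups. Prf1, Erich5, Gm7609, Ifngr2, Rhbdl2, Zxda and Pisd-ps2 each read more than 1 log2 unit brighter on every one of 5 arrays, 1-week arrays B and C and all 6-week arrays, than on any other. No label names such a batch, so the set is a property of the values. For the 8 genes, and for other genes given with values, the change with the array set as a term in the model is therefore added where that alters a call from naive. For the gene lists the counts from that model are added. At 1 week that value rests on 1-week array A alone, the only treated array of that group in the naive arrays' set. At 6 weeks it rests on the difference between 1-week array A and 1-week arrays B and C, because no 6-week array shares a set with a naive or 4-week array. Across genes, which are not independent replicates, r between arrays was 0.953 to 0.99 inside a group and 0.904 to 0.98 for arrays of different groups.

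All 8 genes had a higher mean after TAA than in naive liver at each of the 3 times, and Cbr3 and Srxn1 showed the widest differences. Of the 24 changes, 16 were called, that is, passed an adjusted p of 0.05 in limma, and all 24 were positive. At 1 week 5 of the 8 genes were called higher and 0 lower, where 13.3% of all genes tested were called higher. At 4 weeks the count was also 5, against 15.2% of all genes, and at 6 weeks it was 6, against 22.4%. The median change over the 8 genes was 1.06 at 1 week, 1.16 at 4 weeks and 1.17 at 6 weeks on the log2 scale, beside medians over all genes of 0.02, 0.03 and 0.09. With the array set in the model, the counts called higher were 3, 5 and 2, against 8.06%, 16.4% and 6.45% of all genes. All 24 changes stayed positive in that model, and the medians over the 8 genes were then 0.66, 1.16 and 0.59. The 3 sets of changes share the naive arrays, so they are not independent of one another. In RNA of whole liver, fewer cells of a type and less RNA per cell cannot be told apart, and the same holds for more cells and more RNA.

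**Figure D1:**
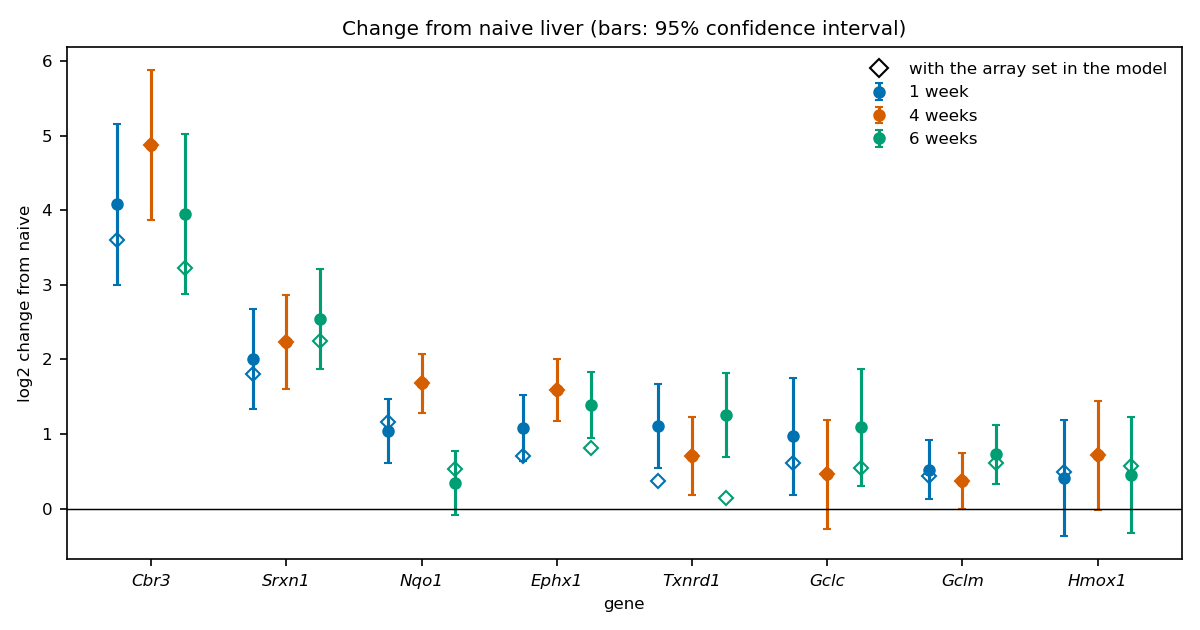
Log2 change from naive of the 8 genes (horizontal axis) after 1, 4 and 6 weeks of TAA (filled circles, bars 95% confidence interval of the limma model), with the value from the model that holds the array set as a term (open diamonds). All filled points lie above 0, from 0.34 for Nqo1 at 6 weeks to 4.87 for Cbr3 at 4 weeks, and the open diamonds of Txnrd1 drop to 0.37 at 1 week and 0.15 at 6 weeks. Under median scaling in place of quantile normalization 4 of the 24 changes were negative, those of Gclm at 1 and 6 weeks and of Nqo1 and Hmox1 at 6 weeks.

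Cbr3, a carbonyl reductase of the short-chain dehydrogenase family, had the largest change of the 8. Its tested probe, ILMN_2896768, read 6.26, 5.50 and 5.84 (normalized log2 intensity) on the naive arrays, 9.47, 9.77 and 10.59 at 1 week, 10.69, 10.27, 11.51 and 10.47 at 4 weeks, and 8.97, 9.17 and 11.30 at 6 weeks. Every one of the 10 TAA arrays lay above every naive array, and the 6-week arrays split into A and B near 9 and C above all but 1 of the 4-week arrays. The change from naive was 4.08 ± 0.50 (SE) on the log2 scale at 1 week, 16.9-fold (adjusted p = 1.36e-04). At 4 weeks it was 4.87 ± 0.47 or 29.2-fold (adjusted p = 8.95e-06), and at 6 weeks 3.95 ± 0.50 or 15.4-fold (adjusted p = 5.64e-05). These folds start from a dim naive signal, which on naive array B stood close to the lowest signal detected there, 5.44. Without background correction the change was smaller, 2.68 at 1 week and 3.39 at 4 weeks. With the array set in the model the gene was still called at each time, at 3.60 (adjusted p = 0.00782), 4.87 (adjusted p = 2.26e-05) and 3.23 (adjusted p = 0.039).

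The other Cbr3 probe, ILMN_2608811, was detected on no naive array and on all 10 TAA arrays, so it passed the filter through the TAA arrays alone. Its values were 7.68, 7.37 and 8.05 at 1 week, 8.78, 8.31, 9.14 and 8.24 at 4 weeks, and 6.45, 7.04 and 8.51 at 6 weeks. Since the naive level is known only as a bound, Cbr3 by this probe was at least 4.89-fold higher at 1 week, at least 9.24-fold higher at 4 weeks and at least 3.79-fold higher at 6 weeks. The limma changes, which use the undetected naive readings, had an adjusted p over all probes of 2.55e-04, 1.00e-05 and 2.50e-04. In the model with the array set this probe was called at 1 and 4 weeks and missed the threshold at 6 weeks (adjusted p = 0.0518). The bounds set the mean of the TAA arrays against the lowest signal detected on each naive array. Both probes had their highest group mean at 4 weeks.

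Ephx1, microsomal epoxide hydrolase, which opens epoxides to diols, rose at each time. Probe ILMN_2664224 read 11.77, 11.62 and 11.65 on the naive arrays, 12.39, 13.09 and 12.82 at 1 week, 12.92, 13.38, 13.39 and 13.43 at 4 weeks, and 13.32, 12.83 and 13.05 at 6 weeks. Its lowest TAA array was thus above the highest naive array. The changes were 1.09 ± 0.21 (2.12-fold, adjusted p = 0.00203), 1.60 ± 0.19 (3.03-fold, adjusted p = 5.71e-05) and 1.39 ± 0.21 (2.62-fold, adjusted p = 1.66e-04). In the model with the array set the call held at 4 weeks (1.60, adjusted p = 4.08e-05), while the values at 1 week (0.71, adjusted p = 0.0864) and 6 weeks (0.82, adjusted p = 0.118) did not pass.

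Nqo1, the quinone reductase that is the customary readout of NRF2 activity, was high at 1 and 4 weeks and close to naive at 6 weeks. Probe ILMN_2726371 read 6.04, 5.84 and 5.83 on the naive arrays, 7.07, 7.07 and 6.68 at 1 week, 7.63, 7.22, 7.87 and 7.62 at 4 weeks, and 6.00, 6.51 and 6.23 at 6 weeks. Its 4-week arrays did not overlap those of any other group, and 6-week array A lay within the naive range. The changes from naive were 1.04 ± 0.20 at 1 week (2.05-fold, adjusted p = 0.00209) and 1.68 ± 0.19 at 4 weeks (3.20-fold, adjusted p = 2.88e-05). At 6 weeks the value was 0.34 ± 0.20 (adjusted p = 0.189), with a 95% confidence interval from -0.08 to 0.77. The calls were the same with the array set in the model, at 1.17 (adjusted p = 0.0173), 1.68 (adjusted p = 4.64e-05) and 0.54 (adjusted p = 0.349). A further Nqo1 probe, ILMN_2766386, was detected on no array and gives no level.

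By the tested probe of each gene, Nqo1 was also the only one of the 8 called between treatment times. It was higher at 4 weeks than at 1 week by 0.64 ± 0.19 (adjusted p = 0.0461), where 4.4% of all genes were called higher. It was lower at 6 weeks than at 1 week, by -0.69 ± 0.20 (adjusted p = 0.0438), where 3.9% of all genes were called lower. Between 6 and 4 weeks its change was -1.34 ± 0.19 (adjusted p = 0.00178), where 3.09% of all genes were called lower. The arrays did not overlap in any of these 3 comparisons. The share of all genes without overlap in them is not given here, so this adds no weight to the calls. None of the 3 passed with the array set in the model, at 0.51 (adjusted p = 0.323), -0.63 (adjusted p = 0.113) and -1.15 (adjusted p = 0.345), and in the last of these limma called 0 of all genes, with 800 at an unadjusted p under 0.05. The first 2 calls also depended on single arrays. The call between 4 weeks and 1 week was lost without any 1 of the naive arrays, 1-week array A or C, 4-week array A, C or D or 6-week array C, and was lowest without 1-week array C, at 0.51 (adjusted p = 0.143). The call between 6 weeks and 1 week was lost without any 1 of the naive arrays, 1-week array A or B, 4-week array A or D or 6-week array A or C, and was smallest without 6-week array A, at -0.57 (adjusted p = 0.154). It was also lost without 1-week arrays B and C together (-0.82, adjusted p = 0.0577).

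Srxn1, sulfiredoxin, which returns overoxidised peroxiredoxins to the active form, rose at each time. Probe ILMN_2677772 read 8.64, 8.61 and 8.37 on the naive arrays, 10.34, 11.20 and 10.09 at 1 week, 10.78, 10.06, 11.46 and 10.79 at 4 weeks, and 11.26, 10.87 and 11.14 at 6 weeks. Its lowest TAA array, 4-week array B, stood more than 1 log2 unit above the highest naive array, and the 3 TAA groups overlapped. The changes were 2.01 ± 0.31 (4.02-fold, adjusted p = 5.37e-04), 2.24 ± 0.29 (4.71-fold, adjusted p = 9.61e-05) and 2.55 ± 0.31 (5.85-fold, adjusted p = 4.57e-05). The call held in each with the array set in the model, at 1.80 (adjusted p = 0.0204), 2.24 (adjusted p = 1.73e-04) and 2.24 (adjusted p = 0.0269).

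The other 2 Srxn1 probes were also brighter on all 10 TAA arrays than on any naive array. ILMN_2667346 had group means of 6.48 ± 0.16 (SD, n = 3) in naive liver, 7.90 ± 0.26 (n = 3) at 1 week, 8.39 ± 0.51 (n = 4) at 4 weeks and 7.91 ± 0.10 (n = 3) at 6 weeks, and its changes of 1.42, 1.91 and 1.43 were all called (adjusted p over all probes 0.00119, 6.23e-05 and 5.17e-04). ILMN_1229994, detected on only 1 naive array, changed by 0.70 ± 0.30 (adjusted p = 0.0971), 1.19 ± 0.28 (adjusted p = 0.00607) and 0.76 ± 0.30 (adjusted p = 0.057), so it passed at 4 weeks alone. Once the array set was in the model, ILMN_2667346 was called at 1 and 4 weeks but not at 6 weeks (1.11, adjusted p = 0.126). The probes differed in where the mean was highest, at 6 weeks for ILMN_2677772 and at 4 weeks for the other two. Between 4 and 6 weeks they read 0.31 (adjusted p = 0.572), -0.48 (adjusted p = 0.217) and -0.43 (adjusted p = 0.361), none of them called.

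**Figure D2:**
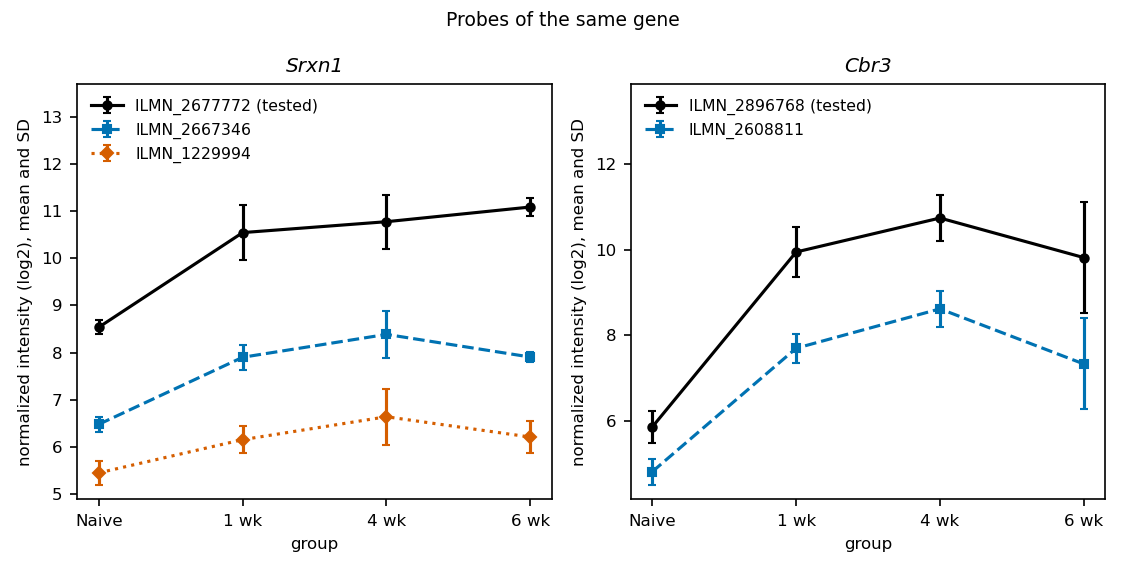
Mean normalized log2 intensity (vertical axis, bars SD over 3 or 4 arrays) in each group (horizontal axis) for the 3 probes of Srxn1 and the 2 probes of Cbr3 that passed the detection filter. All 5 probes are lowest in naive liver. The Cbr3 probes both peak at 4 weeks, with means of 10.74 and 8.62, whereas of the Srxn1 probes only the tested one is highest at 6 weeks, at 11.09.

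Txnrd1, the cytosolic thioredoxin reductase, spends NADPH to keep thioredoxin reduced. Probe ILMN_2484465 read 5.37, 4.82 and 5.38 on the naive arrays, 5.56, 6.75 and 6.57 at 1 week, 5.95, 6.03, 5.92 and 5.68 at 4 weeks, and 6.44, 6.56 and 6.33 at 6 weeks. Every TAA array was above every naive array. The 5 arrays of the second set were also above all 8 others, with a gap of 0.30, so its values were divided both by the treatment and by the array set. The changes were 1.10 ± 0.26 (adjusted p = 0.00762), 0.70 ± 0.25 (adjusted p = 0.0446) and 1.25 ± 0.26 (adjusted p = 0.00191). Its 4-week call held with the array set in the model (adjusted p = 0.00717), and the values at 1 week (0.37, adjusted p = 0.357) and 6 weeks (0.15, adjusted p = 0.799) did not pass. The 4-week call without the array set was lost when any array other than 4-week array D or a 1-week array was left out, and was lowest without naive array B, at 0.52 (adjusted p = 0.192). Only naive array A detected the probe among the 3, and with the other two set to their lowest detected signal the changes were 0.88, 0.48 and 1.03.

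Gclc and Gclm encode the catalytic and the modifier subunit of glutamate-cysteine ligase, the enzyme that limits glutathione synthesis, and both were called at 6 weeks only. Gclc probe ILMN_2608016 read 5.65, 6.12 and 5.42 on the naive arrays, 6.34, 7.86 and 5.90 at 1 week, 6.30, 5.99, 6.41 and 6.06 at 4 weeks, and 6.94, 6.60 and 6.92 at 6 weeks. At 1 week array B stood more than 1 log2 unit above the next array, and array C lay inside the naive range. The Gclc changes were 0.97 ± 0.37 (adjusted p = 0.0643), 0.46 ± 0.34 (adjusted p = 0.338) and 1.09 ± 0.37 (2.13-fold, adjusted p = 0.0286). The 6-week call was lost with the array set in the model (0.55, adjusted p = 0.626) and without naive array A or C or 6-week array A or C, when the adjusted p ran from 0.0708 to 0.101. The 1-week change turned on single arrays, at 0.39 (adjusted p = 0.223) without 1-week array B and at 1.37 (adjusted p = 0.0117) without 1-week array C.

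Gclm probe ILMN_1256354 was detected on every array. It read 10.32, 10.21 and 10.69 on the naive arrays, 10.85, 10.91 and 11.01 at 1 week, 10.46, 10.88, 11.03 and 10.72 at 4 weeks, and 11.28, 11.01 and 11.12 at 6 weeks. All TAA arrays but 4-week array A were above the highest naive array. The changes were small, 0.52 ± 0.19 (adjusted p = 0.0513), 0.37 ± 0.17 (adjusted p = 0.123) and 0.73 ± 0.19 (1.66-fold, adjusted p = 0.00627). With the array set in the model the 6-week value was 0.62 and did not pass (adjusted p = 0.242). The 1-week value passed without naive array C, at 0.66 (adjusted p = 0.0359), and without 4-week array A, at an unmoved 0.52 (adjusted p = 0.0455), and was lowest without naive array B, at 0.42 (adjusted p = 0.179).

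Hmox1, haem oxygenase 1, splits haem into biliverdin, iron and carbon monoxide, and was called at no time. Probe ILMN_2788073 read 6.64, 6.25 and 6.63 on the naive arrays, 7.0, 6.86 and 6.90 at 1 week, 7.37, 6.67, 8.42 and 6.42 at 4 weeks, and 7.01, 6.87 and 6.98 at 6 weeks. Its 1-week and 6-week arrays all lay above the naive arrays by a small margin, and the 4-week arrays spread widely, from D inside the naive range to C as the brightest of all 13. The changes were 0.42 ± 0.36 (adjusted p = 0.433), 0.72 ± 0.34 (adjusted p = 0.131) and 0.45 ± 0.36 (adjusted p = 0.351), with 95% confidence intervals that reached up to 1.19, 1.44 and 1.23. The 4-week change was 0.32 (adjusted p = 0.338) without 4-week array C, and 0.98, past the threshold (adjusted p = 0.0378), without 4-week array D.

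**Figure D3:**
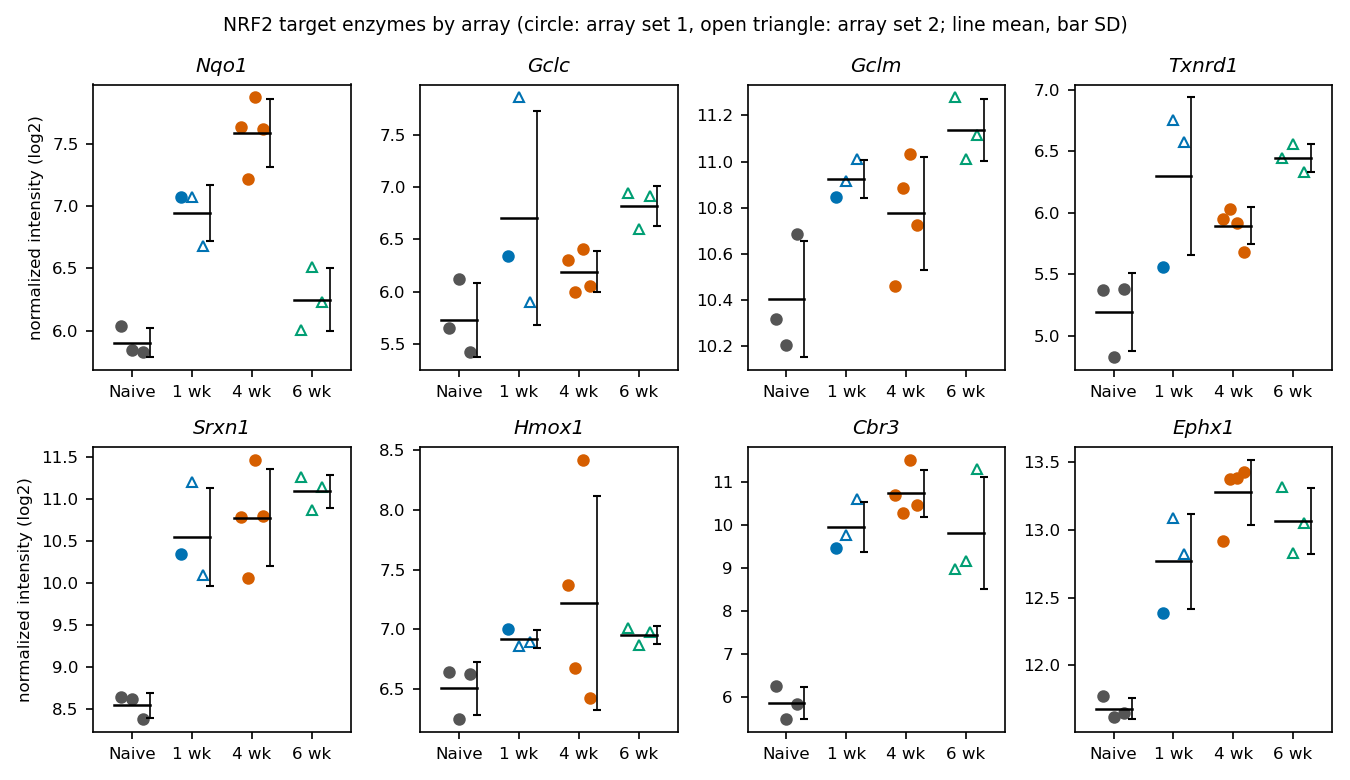
Normalized log2 intensity (vertical axis, a separate scale for each gene) of the tested probe of each gene on every array, by group, with the group mean as a line and the SD as a bar; filled circles are arrays of the first set and open triangles the 5 arrays of the second. Cbr3, Srxn1, Ephx1 and Txnrd1 have all 10 TAA arrays above the 3 naive arrays. How many of all genes do so over the 10 arrays together was not counted. By time, 19.1%, 24.8% and 30.4% of all genes had every TAA array above every naive array at 1, 4 and 6 weeks. Nqo1 falls back to between 6.00 and 6.51 at 6 weeks, and Hmox1 at 4 weeks spans 6.42 to 8.42.

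Counted by arrays, 7 of the 8 genes at 1 week had every TAA array above every naive array, where 19.1% of all genes did. At 4 weeks it was 5 genes, against 24.8%, and at 6 weeks 7 genes, against 30.4%. Gclc was the exception at 1 week, Nqo1 at 6 weeks, and Gclc, Gclm and Hmox1 at 4 weeks. Between treatment times, the 7 genes other than Nqo1 were not called in any comparison by the tested probe. Their changes between times ran from -0.92 for Cbr3 between 6 and 4 weeks to 0.79 for Cbr3 between 4 weeks and 1 week. The 95% confidence intervals of these changes reached from -1.93 to 1.80, both limits being those of Cbr3. The Cbr3 change between 6 and 4 weeks was -1.66 and passed (adjusted p = 0.0322) without 6-week array C, and was -0.50 (adjusted p = 0.684) without 6-week array A. The second Cbr3 probe passed with all arrays, at -1.28 ± 0.38 (adjusted p over all probes 0.0417), but not in the model with the array set (-1.31, adjusted p = 0.58). Between 4 weeks and 1 week, Ephx1 passed without 1-week array B (0.67, adjusted p = 0.0441) and read 0.32 without 1-week array A (adjusted p = 0.311). Txnrd1 passed there without 1-week array A (-0.77, adjusted p = 0.0268) and read -0.17 without 1-week array B (adjusted p = 0.676). Without 1-week arrays B and C together, Txnrd1 was called higher at 6 weeks than at 1 week (0.89, adjusted p = 0.0362).

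The size of the changes from naive depended on background correction and on how the arrays were scaled. Without background correction Nqo1 changed by 0.47 at 1 week and 0.84 at 4 weeks. Txnrd1 then changed by 0.40 and 0.22 and was not called at 4 weeks. Ephx1 moved little, at 1.06 and 1.58. When the arrays were set to a common median in place of quantile normalization, the median change of all genes itself moved to -0.44 at 1 week, 0.24 at 4 weeks and -0.65 at 6 weeks. Relative to that median, all 24 changes of the 8 genes remained positive, the lowest being 0.11 for Gclm at 1 week. Cbr3 was called at each time under that scaling, and Nqo1, Srxn1 and Ephx1 at 4 weeks.

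The genes that control the pathway were read beside its targets. The counts of this list and of those that follow stand beside the calls over all 8027 genes tested. At 1, 4 and 6 weeks limma called 2051, 2260 and 3118 of these, of which 1067, 1222 and 1800 were higher than naive and the rest lower. No list was tested as a set, and calls both ways in a list are also what all genes show. Nfe2l2, which encodes NRF2 itself, changed by 0.44 at 1 week (adjusted p = 0.129) and rose by 1.30 ± 0.19 at 4 weeks (adjusted p = 2.07e-04) and 1.09 ± 0.20 at 6 weeks (adjusted p = 8.31e-04). With the array set in the model the 6-week value was 0.98 (adjusted p = 0.0946). Keap1 read -0.19, -0.26 and -0.42 (adjusted p = 0.451, 0.248 and 0.0604), and with the array set in the model its 6-week change of -0.89 passed (adjusted p = 0.0459). Bach1, the repressor, read -0.37, -0.37 and 0.06 and was called at no time. Of 11 regulators tested, which also include the small MAF proteins and the CUL3 ligase parts, 1 rose and 1 fell at 1 week, 2 rose and 1 fell at 4 weeks, and 2 rose and 0 fell at 6 weeks. Those that rose were Rbx1, a part of the ligase, at 1 week, Nfe2l2 and Rbx1 at 4 weeks, and Nfe2l2 and Cul3 at 6 weeks. The gene that fell at 1 and 4 weeks was Nfe2l1, which encodes the related factor NRF1 (-0.79 ± 0.19 and -0.73 ± 0.18). Neither Nfe2l1 (adjusted p = 0.0544) nor Rbx1 (adjusted p = 0.105) was called at 1 week with the array set in the model. That model called 0 regulators at 1 week in limma, with 2 higher and 3 lower at an unadjusted p under 0.05, and 1 higher and 1 lower at 6 weeks.

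Among 15 genes of glutathione synthesis and use, other than the ligase subunits, 4 rose and 3 fell at 1 week, 4 rose and 3 fell at 4 weeks, and 5 rose and 6 fell at 6 weeks. Slc7a11, Gpx4 and Mgst3 rose at each time and Gss, glutathione synthetase, at 1 and 4 weeks. Slc7a11, the cystine importer that feeds glutathione synthesis and is itself an NRF2 target, was detected on no naive array and on 2 of the 3 arrays at 1 week. It thus passed the filter through the TAA arrays alone. It was at least 1.77-fold higher at 4 weeks and at least 2.46-fold at 6 weeks. At 1 week the value was 1.94-fold, with the undetected 1-week array left at its own reading. The limma changes, which use the undetected naive readings, were 2.04, 1.91 and 2.38 (adjusted p = 0.0274, 0.0249 and 0.00793). Slc7a11 passed at 4 weeks alone with the array set in the model (adjusted p = 0.0274). Chac1, which degrades glutathione, was lower at each time. At 1 week, when 1 array detected it, it fell by 2.40 ± 0.20 on the log2 scale, and at 4 and 6 weeks it was detected on no array and was at least 4.49-fold and at least 3.99-fold lower. The median over the 15 genes was 0.09, 0.24 and -0.17. The counts fell to 2 higher and 2 lower at 1 week and 1 higher and 2 lower at 6 weeks when the array set was in the model.

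In the thioredoxin and peroxiredoxin list, 2 of 10 genes rose at each time and 1, Prdx4, fell at 6 weeks. Those that rose were Txn1 at each time, with Prdx1 at 1 and 6 weeks and Prdx3 at 4 weeks. Txn1, thioredoxin, the substrate of thioredoxin reductase, changed by 0.79 ± 0.23 at 1 week and 1.04 ± 0.23 at 6 weeks (adjusted p = 0.0224 and 0.00302), but by 0.30 at both times with the array set in the model (adjusted p = 0.506 and 0.619). Prdx3, the mitochondrial peroxiredoxin, rose by 0.69 ± 0.19 at 4 weeks (adjusted p = 0.0149). In that model limma called 0 of the 10 genes at 1 week and at 6 weeks, and 0 had an unadjusted p under 0.05; the fall of Prdx4 at 6 weeks was among the calls lost (adjusted p = 0.747). Of 7 enzymes that supply NADPH, limma called 0 at 1 week, with 1 higher and 1 lower at an unadjusted p under 0.05. Of the same 7, 2 rose at 4 weeks, and 2 rose and 1 fell at 6 weeks, Tkt and Taldo1 of the pentose phosphate pathway rising and Mthfd1 falling. Transketolase, Tkt, had the largest rise of these, 0.77 ± 0.18 at 4 weeks (adjusted p = 0.00536) and 1.16 ± 0.19 at 6 weeks (adjusted p = 3.54e-04; 0.55 and adjusted p = 0.22 with the array set). The fall of Mthfd1 at 6 weeks was not called with the array set (adjusted p = 0.0519), nor was any other of the 7 at 1 or 6 weeks.

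The other carbonyl, quinone and epoxide enzymes split. Of 7 tested, 2 rose and 3 fell at 1 week, 2 rose and 2 fell at 4 weeks, and 2 rose and 3 fell at 6 weeks. Cbr1 and Esd, an esterase that the list also held, rose at each time. Cryz and Ephx2 fell at each time, and Ptgr2 fell at 1 and 6 weeks. Cbr1, the carbonyl reductase paralogous to Cbr3, rose by 1.16 ± 0.25, 1.36 ± 0.24 and 1.22 ± 0.25 (adjusted p = 0.00468, 7.71e-04 and 0.00178), and with the array set in the model it was called at 4 weeks alone. Ephx2, the soluble epoxide hydrolase, fell by 1.14 ± 0.21 at 4 weeks (adjusted p = 0.00126), whereas Ephx1 rose there. Cryz, a quinone reductase of another protein family than Nqo1, fell by 0.93 ± 0.21 at 1 week and 1.57 ± 0.21 at 6 weeks (adjusted p = 0.00604 and 7.45e-05; with the array set in the model adjusted p = 0.141 and 0.054). In that model limma called 0 of the 7 at 1 week, with 3 higher and 1 lower at an unadjusted p under 0.05, and 0 at 6 weeks, with 0 higher and 2 lower. Of 4 genes for UDP-glucuronate and efflux, 1 rose and 2 fell, 1 rose and 1 fell, and 2 rose and 2 fell at the 3 times, Ugp2, Abcc3 and Abcc5 being the genes called besides Abcc2. The canalicular exporter Abcc2 rose by 1.05 ± 0.27, 1.65 ± 0.25 and 1.32 ± 0.27, and the basolateral exporter Abcc3 fell by 1.06 ± 0.31 at 1 week and 1.26 ± 0.31 at 6 weeks. For Abcc2 the values were 1.07 at 1 week (adjusted p = 0.0828) and 1.34 at 6 weeks (adjusted p = 0.0903) with the array set in the model, so it was then called at 4 weeks alone, and Abcc3 was the 1 gene of the 4 called at 1 and 6 weeks.

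Haem and iron genes, like all genes tested, had calls both ways, while Hmox1 was not called. Of 14 tested, 4 rose and 2 fell at 1 week, 3 rose and 3 fell at 4 weeks, and 3 rose and 5 fell at 6 weeks. Alas1, the first enzyme of haem synthesis, Blvrb and Slc48a1 rose at each time, and Slc40a1, the iron exporter, at 1 week. The haem transporter Slc48a1 rose by 1.11 ± 0.19, 1.26 ± 0.18 and 1.61 ± 0.19 (adjusted p = 9.85e-04, 1.58e-04 and 3.48e-05), and its call held at each time with the array set in the model. Hmox2, the constitutive haem oxygenase, fell by 1.59 ± 0.20 at 6 weeks (adjusted p = 4.77e-05; -1.51 and adjusted p = 0.0204 with the array set). Blvrb, a biliverdin and flavin reductase, changed by 0.77, 1.09 and 0.97, all called, but at 4 weeks alone with the array set in the model (adjusted p = 0.187 at 1 week and 0.237 at 6 weeks). The list's counts in that model were 2 higher and 0 lower at 1 week, where 1 was lower at an unadjusted p under 0.05, and 2 higher and 2 lower at 6 weeks.

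A list of 10 further antioxidant genes held metallothioneins beside enzymes. Of these 10, 0 rose and 2 fell at 1 week, 1 rose and 3 fell at 4 weeks, and 1 rose and 5 fell at 6 weeks. In the model with the array set 1 fell at 1 week and 1 at 6 weeks, and none was called higher at either time or had an unadjusted p under 0.05 in that direction. Catalase, Cat, fell by 0.75 ± 0.24 at 1 week (adjusted p = 0.0325), metallothionein Mt1 by 1.44 ± 0.42 at 4 weeks (adjusted p = 0.0192), and Sod2, the mitochondrial superoxide dismutase, rose by 0.61 ± 0.15 at 4 weeks (adjusted p = 0.00788). Of 18 glutathione S-transferases, 7 rose and 3 fell at 1 week, 8 rose and 2 fell at 4 weeks, and 7 rose and 7 fell at 6 weeks. The array set in the model changed this to 7 rising and 1 falling after 1 week, and to 3 rising and 2 falling after 6 weeks. Gsta1 had the largest change, 8.03 ± 0.48, 7.54 ± 0.45 and 8.07 ± 0.48 (adjusted p = 4.24e-07, 8.09e-08 and 1.33e-07), from a naive signal detected on 1 of 3 arrays. When the other two naive arrays were set to their lowest detected signal, the changes were 7.36, 6.87 and 7.40. Gsta1 and Gsta2 are close paralogs, and a probe may read both.

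**Figure D4:**
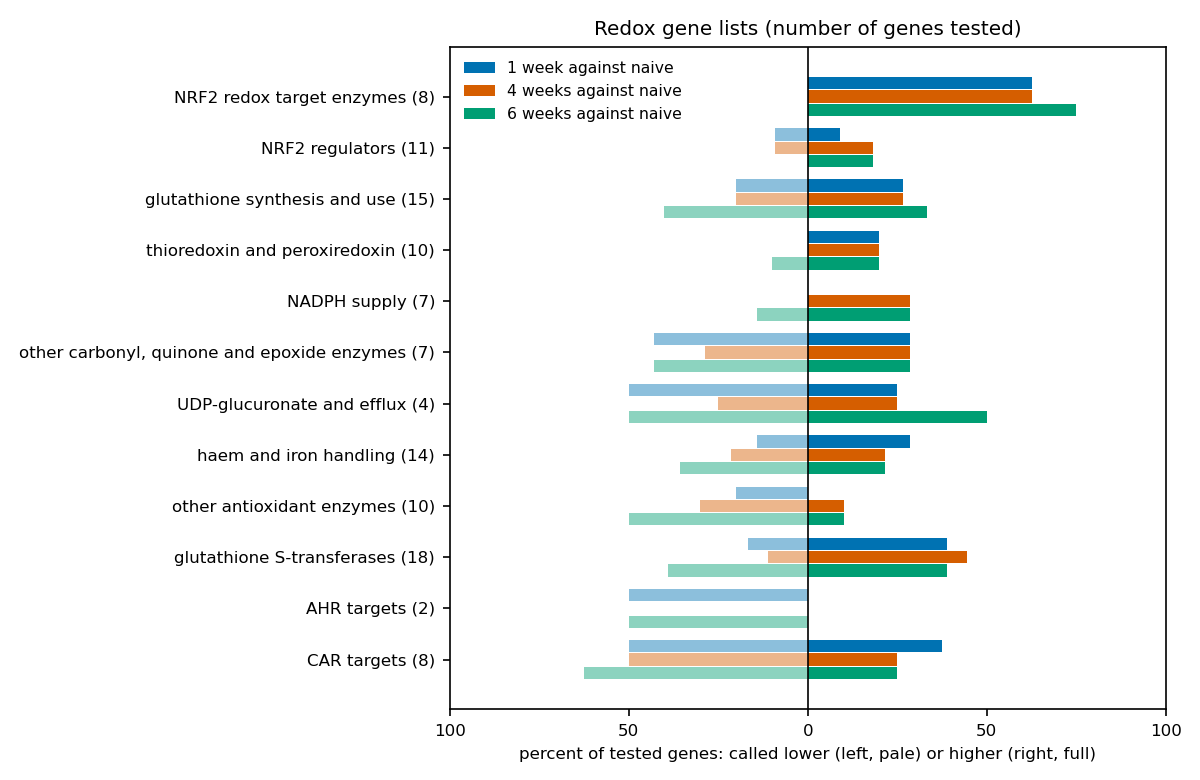
Share of the tested genes of each list (number in brackets) called higher (full colour, to the right) or lower (pale, to the left) than naive after 1, 4 and 6 weeks of TAA, in percent. The 8 NRF2 target enzymes had calls to the right only, 5, 5 and 6 of 8. Of all genes 13.3%, 15.2% and 22.4% were called higher. Of the other 11 lists 10 had calls to both sides in at least 1 comparison. The list of AHR targets, with 2 genes tested, had calls to the left only. In single comparisons calls to the right only also occurred in other lists. These were thioredoxin and peroxiredoxin at 1 and 4 weeks, NADPH supply at 4 weeks and the regulators at 6 weeks.

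Targets of other drug-sensing receptors, which also control detoxification enzymes, were read beside them. Of 2 tested genes of the aryl hydrocarbon receptor (AHR) list, Cyp1a2 fell by 1.55 ± 0.30 at 1 week and 1.29 ± 0.30 at 6 weeks (adjusted p = 0.00198 and 0.00345). The 6-week fall was not called with the array set in the model (-1.25, adjusted p = 0.153). Of 8 genes of the constitutive androstane receptor (CAR) list, 3 rose and 4 fell at 1 week, 2 rose and 4 fell at 4 weeks, and 2 rose and 5 fell at 6 weeks. Cyp2c55 rose by 2.05 ± 0.38, 1.91 ± 0.36 and 1.40 ± 0.38, and Cyp2b13 fell by 2.96 ± 0.64, 2.45 ± 0.60 and 5.61 ± 0.64. Cyp2c55 did not pass at 6 weeks with the array set in the model (1.98, adjusted p = 0.0785). In that model 1 of the 8 rose and 4 fell at 1 week, and 5 fell at 6 weeks, when 2 were higher at an unadjusted p under 0.05 and 0 were called higher in limma.

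Markers of cell types were read as well, where 13.3%, 15.2% and 22.4% of all genes were called higher at 1, 4 and 6 weeks. Several counts of rising markers lie near these shares, such as 3 of 13 macrophage markers at 6 weeks. Alb and 8 other hepatocyte markers passed the filter, Fgb was detected on no array, and the summed level of the 9 ran from 107334 to 121401 in naive liver, 107587 to 122589 at 1 week, 101885 to 110340 at 4 weeks and 97113 to 111725 at 6 weeks (linear normalized intensity). The Alb probe was dim, with group means of 6.16, 6.40, 5.68 and 6.07 on the log2 scale, and adds little to that sum. Whether the sum of the 9 markers follows hepatocyte content was not tested. Of these 9, limma called 0 at 1 week, with 1 lower at an unadjusted p under 0.05, and 2 fell at 4 weeks and 3 fell at 6 weeks. The 13 macrophage markers summed to 4642 to 4998 in naive liver, 5993 to 9926 at 1 week, 5431 to 7036 at 4 weeks and 3567 to 6174 at 6 weeks. Of them 3, 4 and 3 rose and 1, 1 and 2 fell, and Gpnmb, Trem2 and Cd5l were detected on no naive array. The 9 stellate cell and myofibroblast markers summed to 5727 to 6306 in naive liver and to 7990 to 10349, 7678 to 11966 and 8173 to 10433 after TAA, with 2, 5 and 7 rising. Col1a1 was detected on no naive and no 1-week array.

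Bile duct markers (4 tested) summed to 111 to 133 in naive liver and to 142 to 299, 232 to 540 and 499.9 to 596 after TAA, with 1, 1 and 3 rising, and Krt19 was detected on no naive or 1-week array. The 8 endothelial markers summed to 4337 to 4937, 3852 to 5424, 4046 to 5461 and 3229 to 4335, with 1, 0 and 1 rising and 1, 1 and 2 falling. Of 4 lymphocyte and neutrophil markers, which summed to 191 to 441, 442 to 666, 264 to 1008 and 574 to 1114, only 2 were called, both higher at 6 weeks, and Cd79a was detected on no array. The 4 erythroid markers summed to 5275 to 16882, 985 to 6408, 12265 to 26335 and 7017 to 10613, and 1 was called, Hba-a1, which fell at 1 week (adjusted p = 0.333 with the array set in the model). In that model, at 1 and 6 weeks, 5 and 3 macrophage markers rose and 1 and 1 fell, 2 and 4 stellate cell and myofibroblast markers rose, and 0 and 1 bile duct markers rose. It called 0 and 0 of the hepatocyte markers, 0 and 1 of the endothelial, and none of the lymphocyte, neutrophil and erythroid markers, with 0 and 2 hepatocyte, 2 and 1 endothelial, 0 and 1 lymphocyte and neutrophil, 0 and 0 erythroid, and 1 and 1 bile duct markers at an unadjusted p under 0.05. Whether changes in cell make-up had a part in the changes of the 8 genes was not tested.

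Genes with the most similar pattern were sought as the smallest root mean square difference of centred log2 values over the 13 arrays. Nearest to Nqo1 was Nhp2, with a difference of 0.25, followed by Tyms and Gstp1 at 0.29 each. Nearest to Srxn1 were Anxa2 at 0.29, Nid1 at 0.32 and Mtmr11 at 0.33, and nearest to Ephx1 were Nrm at 0.19, Nudt18 at 0.22 and Cln6 at 0.23. For Cbr3 the nearest were Cd63, Adam32 and Tinag at 0.76 to 0.77. For Gclm these were Necap1, Zfp36l1 and Drap1 (0.14 to 0.15), for Gclc Nxf1, Map4k4 and Iqgap3 (0.26 to 0.30), for Txnrd1 Ascc2, Hirip3 and Nop14 (all 0.26) and for Hmox1 Spg21, Cenpp and Nol11 (0.33 to 0.35). A gene that varies little has near neighbours for that reason alone, and a gene that varies widely has distant ones. The root mean square of the centred values was 0.31 for Gclm and 1.98 for Cbr3. Among the 8 genes themselves the smallest difference was 0.36, between Gclm and Txnrd1, which is above the 0.31 of Gclm itself. The largest was 1.80, between Gclc and Cbr3.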

How the data were processed

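Per the labels' protocols, total liver RNA was column-purified and DNase-treated, and biotinylated cRNA was hybridised and stained with streptavidin-Cy3. The submitters' processing notes name GenomeStudio, with no version. The raw table deposited by the authors holds, per the file headers, mean bead intensity per probe and array, not normalized, with a detection p-value beside each. Columns carry a group and a letter and were given their group from that heading. The deposited value table holds log2 values centred near 0 per probe, with normalization and centring not stated. Its group differences from naive followed quantile-normalized log2 raw intensities across probes (r = 0.998, slope 0.909), so it was taken to be on a log2 scale, higher where brighter. How each column was centred stays unknown, and the mean of all values was 0.00751. Column medians were -8.67e-04, -6.07e-04 and -9.75e-04 (naive), -0.00176, -0.00116 and -4.85e-04 (1 week), -7.00e-04, 2.87e-04, 1.98e-04 and -1.98e-04 (4 weeks) and 0.00115, 0.00134 and 3.67e-05 (6 weeks). It served as an alternative, since its replicate numbers cannot be matched to the letters.

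The neqc step of limma 3.58.1 (R 4.3.3) corrected the background, taking the negative controls from the detection p-values, added an offset of 16 and quantile-normalized the arrays. A probe was kept where 3 or more arrays detected it at a p-value below 0.01, which left 11212 of 25697. Of all probes 23978 carried 1 gene symbol, 0 several and 1719 none, and old symbols were updated through gene identifiers. The probe with the highest mean stood for a gene, giving 8027 genes. One limma model (lmFit, eBayes, two-sided) over 13 arrays gave 6 comparisons, adjusted by Benjamini and Hochberg over all genes; further probes were adjusted over all probes in a second fit. The script was tested on simulated data. The 8 genes and all lists were chosen with earlier results of these data known. Beside the 8 genes, Nfe2l2, Keap1 and Bach1, the genes named are the largest called rise or fall per list and comparison and the 3 nearest neighbours, with further list members named after their values were seen. The labels do not say whether replicate numbers of the value table pair the samples. Over 18 pairs of same-numbered samples, deviations from group means correlated with r from -0.339 to 0.237, and 2 pairs were over 0.1. With means of 3 or 4 samples, and with the array sets in the values, these correlations cannot decide it. Precision is limited by the number of arrays and by how far a probe stands above background. Alternatives covered background correction, scaling, filter, model, array set, the value table and each array left out.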

Additional observations from a re-analysis of the deposited data

Results flagged for a closer look

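Ephx1 had 1 array that stood apart from its group, 4-week array A at 12.9 on the normalized log2 scale, below the other three at 13.38 to 13.43. Its gap to the nearest array was 0.899 of the group's whole range, above Dixon's critical value. Of 11 probes tested in the 4-week group 1 was marked in this way, and chance alone marks about 1 group in 20. Without that array the Ephx1 call at 4 weeks held.

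By the tested probe of each gene, Nqo1 was the gene of the 8 whose change from naive differed between times by a test of the difference itself. The differences were 0.64 for 4 weeks against 1 week, -0.69 for 6 weeks against 1 week and -1.34 for 6 weeks against 4 weeks on the log2 scale. None of these passed with the array set in the model, and the last compares groups that share no array set, so time and array set cannot be told apart there. The second Cbr3 probe was also called between 6 and 4 weeks in limma (-1.28, adjusted p over all probes 0.0417). With the array set that probe did not pass (-1.31, adjusted p = 0.58).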

How the results depend on the processing

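For single values, only the lowest and the highest with 1 array left out were counted for each gene and comparison. Over the values so counted, calls were lost in 29 against naive and 16 between times, and gained in 7 and 11. Call and sign stayed the same in 226 and 222. Further calls lost with 1 array left out, such as those of Nqo1 given above, are outside these counts. In the limma model with the array set as a term the number of the 8 genes called was 3 at 1 week and 2 at 6 weeks (5 and 6 in the model without it), and 0 in each comparison between times, where 1, 1 and 2 had an unadjusted p under 0.05. Median scaling gave 1, 4 and 1 against naive and 3, 0 and 4 between times. Without 1-week arrays B and C, chosen after seeing the data, 3 genes were called at 1 week, 0 between 4 weeks and 1 week, and between 6 weeks and 1 week 1, Txnrd1, higher in place of Nqo1, lower. With the 2 groups compared alone the counts between times were 0, 0 and 3, and without a detection filter 0, 0 and 1. Without background correction, or from the deposited value table, 0 were called between 6 weeks and 1 week. A replicate block was possible only in the value table, and the labels do not say that its numbers pair the samples. With that block the counts were 6, 4 and 5 against naive and 0, 0 and 1 between times. With no replicate block they were 6, 4, 5, 1, 0 and 1. Leaving out each array in turn gave 5 to 6, 4 to 6 and 5 to 6 against naive and 0 to 2, 0 to 1 and 1 to 2 between times. All of the 24 changes from naive kept their sign except under median scaling, where Gclm read -0.32 at 1 week and -0.51 at 6 weeks, and at 6 weeks Nqo1 read -0.14 and Hmox1 -0.21. Between times, signs turned in 25 of the values so counted, none of a called change. For 4 weeks against 1 week, median scaling gave 0.059 for Gclc, 0.73 for Gclm and 0.27 for Txnrd1, Txnrd1 was 0.34 with the array set or without 1-week arrays B and C, and with 1 array left out Gclc ran from -0.91 to 0.067 (without 1-week array B) and Hmox1 from -0.10 (without 4-week array C) to 0.57. For 6 weeks against 1 week, median scaling gave -0.30 for Gclc, -0.19 for Gclm, -0.056 for Txnrd1, -0.22 for Hmox1 and -0.16 for Ephx1. The array set gave -0.0599 for Gclc and -0.22 for Txnrd1, without 1-week arrays B and C Hmox1 was -0.050 and Cbr3 0.35, and with 1 array left out Gclc ran from -0.28 (without 1-week array C) to 0.70, Txnrd1 from -0.22 (without 1-week array A) to 0.38 and Cbr3 from -0.87 to 0.29 (without 6-week array A). For 6 weeks against 4 weeks, median scaling gave -0.36 for Gclc, -0.92 for Gclm, -0.33 for Txnrd1 and -0.95 for Srxn1, the array set -0.55 for Txnrd1, and Hmox1 ran from -0.53 to 0.13 (without 4-week array C). The cause of these changes was not tested. Over all genes, median scaling called 768, 657 and 2321 against naive (2051, 2260 and 3118 with quantile normalization) and 951, 5 and 4135 between times (707, 737 and 426). The array set gave 1148, 2420 and 934, and 134, 425 and 0. Dim signals limit Gclc, Txnrd1, the second Cbr3 probe and Srxn1 probe ILMN_1229994, which were not detected on every naive array. The 3 or 4 arrays a group limit all.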
